A study of Mus musculus with 2 samples.

Results

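Interstitial progenitors of mouse iWAT, the white fat under the skin of the groin, were examined in single-nucleus RNA-seq data, in which the RNA of each nucleus is captured in a droplet under its own barcode and each molecule is counted by a unique molecular identifier (UMI). A barcode was taken as a progenitor nucleus when it had at least 500 detected genes, at most 5% of UMIs from mitochondrial (mt-) genes and at least 1 UMI of at least 3 of the 9 selecting genes Pi16, Dpp4, Opcml, Limch1, Creb5, Smpd3, Anxa3, Cd248 and Mfap5. In addition, it could carry at most 1 of the adipocyte genes Plin1, Plin4, Cidec and Lipe and at most 1 of the macrophage and endothelial genes Mrc1, Csf1r, Ptprb and Cdh5. This gave 653 progenitor nuclei of 6593 nuclei kept, 191 of 3649 in the library labelled WT and 462 of 2944 in the library labelled KO.

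Lexis is a long noncoding RNA. Per the study's methods, the Lexis KO mice carried a floxed Lexis allele deleted by Adipoq-cre, a Cre driven by the adiponectin promoter of mature adipocytes, and the Lexis WT controls carried the floxed allele without Cre. All mice were C57BL/6 males on a Western diet for 4 weeks, and the iWAT of 3 mice was pooled, with the lymph node removed, into 1 library per genotype. The methods give an age of about 10 to 12 weeks for most experiments and of 8 to 12 weeks for most diet studies, with none for these mice in particular. The data therefore hold no replicate, no test between genotypes was possible, and every interval below is a 95% interval that covers counting error only, exact except for differences between shares.

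The 2 deposited files carry the opposite genotype in their names, and Lexis was not analysed here because no row carries its name, so the groups are called by their labels throughout and each direction holds for the labels as given. Each library held 5000 barcodes and 31053 genes. The library labelled WT had 9376351 UMIs and a median of 1208 UMIs per kept nucleus, and the library labelled KO had 19655049 UMIs and a median of 3973.5. Lymphocyte nuclei made up 42.0% of the nuclei labelled WT and 2.96% of those labelled KO. Among the deposited barcodes, 12 occurred in both files and 10 of these were kept in both libraries.

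Pi16 and Dpp4 mark fibroblast-like progenitors that lie in the fibrous septa and the outer sheath of fat depots, the reticular interstitium, rather than next to adipocytes or vessels. These cells are multipotent and can give rise to committed preadipocytes, which carry Icam1, Dlk1 and Pparg, and to the F3- and Gdf10-bearing regulatory stroma that restrains adipogenesis. They are known for a matrix rich in elastic fibre proteins and for inhibitors and ligands of WNT and BMP signalling.

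The selecting genes are described here without a test, since they chose the nuclei. Levels are given as CPM, the counts of a gene summed over the nuclei of a class per 1000000 UMIs of that class. Pi16, a secreted peptidase inhibitor, had 1225 CPM (Poisson interval 1125–1332) in the progenitors labelled WT and 1216 CPM (1169–1265) in those labelled KO. Dpp4, a cell-surface dipeptidase that lymphocytes also carry, had 684 (609–764) and 879 (839–921) CPM. In lymphocyte nuclei Pi16 had 20.7 and 21.6 CPM, whereas Dpp4 reached 139 and 162 CPM.

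Both Pi16 and Dpp4 had a UMI in 45.5% of progenitor nuclei labelled WT (38.3–52.9) and 61.5% of those labelled KO (56.9–65.9), and neither did in 13.6% and 19.3%. In lymphocyte nuclei, which should lack Pi16, 39 of 1532 labelled WT and 4 of 87 labelled KO had a Pi16 UMI at median depths of 1087.5 and 2077 UMIs, against 66.0% and 71.4% of progenitor nuclei at 1601 and 3542 UMIs. Thinning to 1000 UMIs dropped nuclei with fewer UMIs and left 163 and 450 progenitor nuclei. In these, Pi16 was seen in 55.8% and 55.1% and Dpp4 in 51.5% and 51.3%.

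Opcml, an adhesion molecule of the IgLON family, had 173 CPM in the progenitors labelled WT and 2315 in those labelled KO, and its thinned share was 20.9% and 74.2%. Creb5, a transcription factor, had 499 and 1441 CPM, and Limch1, an actomyosin regulator, 93.2 and 290 CPM. Anxa3, an annexin, was the reverse, with 1356 and 809 CPM. Mfap5, a microfibril glycoprotein, had 1449 and 1408 CPM, Cd248, a surface glycoprotein of stromal cells, 484 and 397, and Smpd3, a sphingomyelinase, 133 and 143.

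The progenitor nuclei labelled KO carried more of the selecting genes per nucleus. In the library labelled WT, 22.5% of the progenitors had exactly 3 of the 9 genes and 29.3% had 6 or more (23.0–36.3). In the library labelled KO these shares were 13.6% and 64.1% (59.5–68.5). The 2 libraries also differed in depth, with a median of 869 genes per progenitor nucleus labelled WT and 1847 per nucleus labelled KO, and the part of depth in this difference was not tested.

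**Figure D1:**
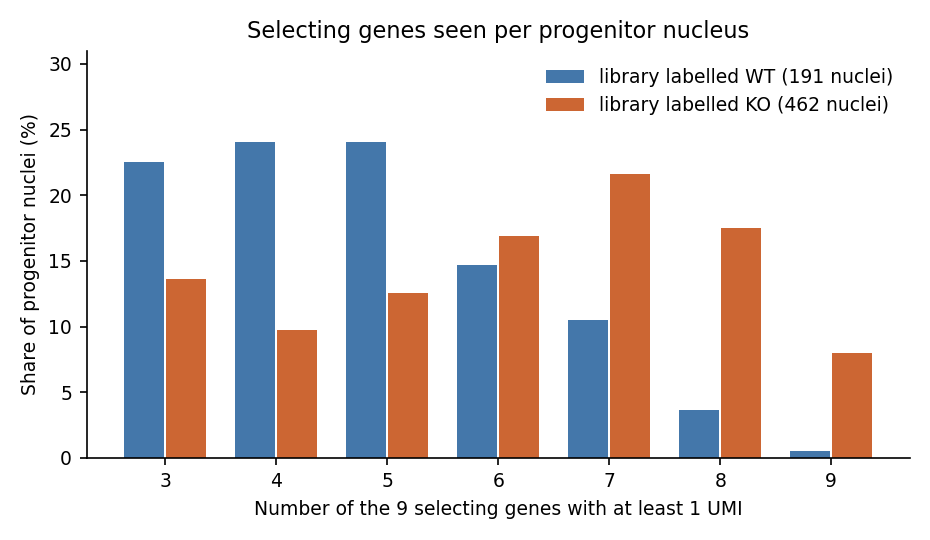
Share of progenitor nuclei (percent, vertical axis) by the number of the 9 selecting genes with at least 1 UMI (horizontal axis), for 191 nuclei of the library labelled WT (blue) and 462 of the library labelled KO (orange). The bars labelled WT are highest at 4 and 5 genes (24.1% each), the bars labelled KO at 7 genes (21.6%).

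At the threshold, and among nuclei that passed the excluding genes, 43 labelled WT had exactly 3 selecting genes and 133 had exactly 2, and the corresponding numbers were 63 and 136 in the library labelled KO. Pi16 was seen in 34.9% just inside and 15.8% just outside labelled WT, and in 14.3% and 14.0% labelled KO. Dpp4 was less frequent inside in both libraries, at 32.6% against 44.4% labelled WT and 11.1% against 17.6% labelled KO. Sema3c, a secreted semaphorin that the rule did not use, was seen in 41.9% of the nuclei just inside and 9.02% of those just outside in the library labelled WT, and in 25.4% and 14.0% in the library labelled KO. Cd55, a further surface marker of these cells, was seen in 34.9% inside and 29.3% outside labelled WT, and in 19.0% and 18.4% labelled KO. Pdgfra, the receptor shared by adipose fibroblasts, was seen in 37.2% and 23.3% labelled WT and in 68.3% and 43.4% labelled KO. Ptprc, the pan-leukocyte gene, was seen in 41.9% inside and 66.2% outside in the library labelled WT, and in 14.3% and 28.7% in the library labelled KO. Of the genes of committed preadipocytes, Pparg was seen in 4 of 43 nuclei inside and 19 of 133 outside labelled WT and in 39 of 63 and 49 of 136 labelled KO, and Bmper in 9.30% and 4.51% labelled WT and 61.9% and 41.2% labelled KO.

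The excluding genes removed 47 of 238 otherwise eligible nuclei labelled WT, 36 of them through the adipocyte genes, and 233 of 695 labelled KO, 207 of them through the adipocyte genes. The nuclei left out had a median of 6555 and 4910 UMIs, more than the progenitors kept.

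Markers of other cell types were summed over the progenitor nuclei. The 13 lymphocyte markers, Ptprc among them, summed to 1017 CPM in the progenitors labelled WT and 67.2 in those labelled KO, against 7865 and 10753 in lymphocyte nuclei, and 7 of the 13 were at 0 in the progenitors labelled KO and none in those labelled WT. At least 2 of the 9 lymphocyte genes that defined the lymphocyte class were seen in 25 of 191 progenitors labelled WT (13.1%) and in 0 of 462 labelled KO, which allows up to 0.795%. The 10 myeloid markers summed to 1343 and 486 CPM, against 11382 and 16530 in myeloid nuclei. The 10 adipocyte markers summed to 382 and 785 CPM, against 8663 and 9326 in adipocyte nuclei. The part of these other cell types in the results below was not tested directly. Alternatives left out progenitors with any lymphocyte gene or with any UMI of an excluding gene, and the latter took the share of progenitors labelled KO from 15.7% to 6.66%.

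Adipoq, whose promoter drives the Cre, had 42.2 CPM in the progenitors labelled WT and 122 CPM in those labelled KO, below the 97.5 and 329 CPM of lymphocyte nuclei. It had a UMI in 16 of 191 progenitor nuclei labelled WT and in 186 of 462 labelled KO. The excluding genes limited how many adipocyte genes a progenitor could carry. Whether the level of Adipoq in the progenitors is background was not tested. The 10 mesothelial markers summed to 37.7 and 2.97 CPM in the progenitors, with 7 of the 10 at 0 in each library.

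The first comparison asked how large a part of the nuclei the progenitors were under each label. They were 5.23% of the kept nuclei labelled WT (4.53–6.01) and 15.7% of those labelled KO (14.4–17.1), a difference of 10.5 percentage points (8.95–12.0). With no UMI of an excluding gene allowed, the difference was much smaller, with the share labelled KO still the higher, as given in the closing section. Without the lymphocyte nuclei the shares were 9.02% (7.84–10.3) and 16.2% (14.8–17.6), 7.15 points apart (5.29–8.99). Among progenitor, committed and regulatory nuclei together the progenitors were 69.0% (63.1–74.4) and 76.1% (72.5–79.5), 7.16 points apart (0.671–13.9). The order of the labels within the stroma turned with how nuclei that met both rules were counted. Of the progenitors, 32 labelled WT (16.8%, 11.8–22.8) and 210 labelled KO (45.5%, 40.8–50.1) also had at least 3 of the genes that chose the committed class. With these counted as committed, the progenitors were 57.4% (51.3–63.3) of the stroma labelled WT and 41.5% (37.6–45.6) of that labelled KO, and with them left out 64.9% (58.6–70.9) and 63.5% (58.5–68.2). After thinning to 1000 UMIs, only 0 of 118 progenitors labelled WT and 34 of 421 labelled KO (8.08%, 5.66–11.1) met both rules. The stromal shares were then 64.8% (57.4–71.8) and 64.6% (60.8–68.2) under the rule as given, and 64.8% and 59.4% (55.5–63.2) with nuclei of both rules counted as committed.

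Within the stroma the 191 progenitors labelled WT stood beside 85 committed and 1 regulatory nucleus, and the 462 labelled KO beside 117 committed and 28 regulatory nuclei. A committed nucleus had UMIs of at least 3 of Bmper, Adamts12, Gpm6b, Gria3, Col15a1, Col4a1, Col4a2, Cxcl14, Icam1 and Dlk1, and a regulatory nucleus of at least 3 of F3, Gdf10, Clec11a, Fmo2, Frmpd4 and Meox2, both with fewer than 3 selecting genes. Thinning to 1000 UMIs before the rules dropped barcodes with fewer UMIs, leaving 2411 of 3649 nuclei labelled WT and 2827 of 2944 labelled KO. Of these, 4.89% labelled WT and 14.9% labelled KO were progenitors. The libraries were thus cut unequally, and the part of this in the shares was not tested. Some selecting genes also differed between the libraries outside the progenitors. In committed nuclei Opcml was seen in 0 of 85 labelled WT and 26 of 117 labelled KO, and Creb5 in 5 and 37. Dpp4, Limch1, Smpd3 and Cd248 were seen in smaller shares of committed nuclei labelled KO. The part of such differences in the share of progenitors was not tested. With 1 pool of mice per label, the difference between animals, dissection and library cannot be told apart from that between genotypes.

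**Figure D2:**
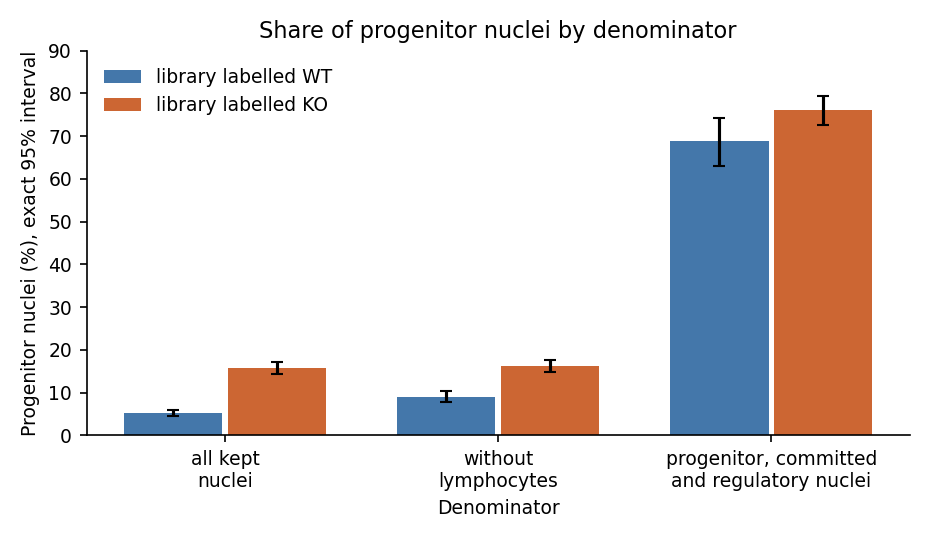
Share of progenitor nuclei (percent, vertical axis, exact 95% interval for counting error) among all kept nuclei, among kept nuclei without lymphocytes, and among progenitor, committed and regulatory nuclei (horizontal axis), for the library labelled WT (blue) and labelled KO (orange). The bar labelled KO is the higher in each pair, 15.7% against 5.23% at the left and 76.1% against 69.0% at the right, where nuclei that met both the progenitor and the committed rule count as progenitors.

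The second comparison set the progenitors against all other kept nuclei of the same library, to name the genes outside the rule that went with it most. Since the nuclei were chosen by expression, these ratios are a description of the class. Genes were ranked by the lower limit of the interval, in whichever library that limit was smaller. Sfrp4, a secreted WNT antagonist, led by this rank. It had 344 CPM in the progenitors labelled WT against 9.83 in the other nuclei, 35.0-fold (26.0–47.5). In the library labelled KO it had 276 against 13.8, 20.1-fold (17.1–23.7). By the ratio itself Pcdh20 was higher in both libraries, 48.9-fold and 28.9-fold. Fbn1, fibrillin-1 of the elastic microfibril, had 1596 against 93.0 CPM (17.2-fold, 15.4–19.1) and 1913 against 112 CPM (17.1-fold, 16.1–18.1). Igfbp6, a binding protein of insulin-like growth factors, had 934 and 798 CPM in the progenitors, 20.5-fold and 15.1-fold above the other nuclei.

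Further matrix genes among the 15 leading genes were Col14a1, a fibril-associated collagen (661 and 757 CPM, 23.0-fold and 14.8-fold), Fndc1 (755 and 1088 CPM, 26.3-fold and 14.3-fold) and Mfap4, an elastic fibre glycoprotein. Mfap4 had 262 CPM labelled WT and 35.6 labelled KO, which was 102-fold (61.0–181) and between 12.6-fold and 32.6-fold above the other nuclei. Gfpt2, an enzyme of hexosamine synthesis, had 444 and 760 CPM (32.6-fold and 15.8-fold). Sema3e, a secreted semaphorin, had 66.6 and 493 CPM (44.0-fold and 14.4-fold), and Dact2, an intracellular modulator of WNT and TGF-beta signalling, 46.6 and 235 CPM (77.1-fold and 14.4-fold). The remaining leading genes were Pcdh20, Sntg1, Ano3, Lrrn4cl, Nov and Islr. Of these, Sntg1 had no count in the other nuclei labelled WT and was at least 58.7-fold higher in the progenitors, a bound set here and below against a floor of 3 counts in the class without a count. Such bounds leave out the counting error of the progenitors, and exact lower limits are lower, 40.8-fold for Sntg1.

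The third comparison set the progenitors against committed preadipocytes, the class they are known to give rise to, within each library, where handling is shared. Median depth differed, at 1601 UMIs in progenitors and 1960 in committed nuclei labelled WT, and 3542 and 3044 labelled KO. Over 8233 genes with at least 10 counts in each library, 351 (4.26%) had at least 2 times the CPM of the committed class in both libraries and 142 (1.72%) had at most 0.5 times. Without the genes of the rules these were 339 and 135. The ratio's interval lay above 1 for 7.73% of genes labelled WT and 12% labelled KO, and below 1 for 4.8% and 11.3%, and the counts of list members below stand beside these shares. No count of members is read as support.

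The 20 further genes listed for interstitial progenitors, which the rule did not use, are given first, as a description. Of the 17 with enough counts, 16 labelled WT and 17 labelled KO had an interval above 1, with a median log2 ratio of 2.13 and 2.66 against 0.11 and 0.01 over all genes compared. Of the 17, 4 labelled WT (Efhd1, Bmp7, Wnt2 and Dact2) and 2 labelled KO (Efhd1 and Bmp7) had no count in committed nuclei and met the minimum through the progenitors alone, and without these the counts were 12 of 13 and 15 of 15. Sema3c had 781 CPM in progenitors and 62.3 in committed nuclei labelled WT (12.5-fold, 7.24–23.8), and 761 and 26.5 CPM labelled KO (28.7-fold, 16.0–57.6). Cd55, the complement decay-accelerating factor used to sort these cells, had 419 and 62.3 CPM (6.74-fold, 3.85–12.9) and 366 and 57.9 CPM (6.33-fold, 4.22–9.94). Lymphocyte nuclei also carried Cd55, at 555 and 200 CPM.

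Efhd1, a calcium-binding mitochondrial protein, had 71.0 and 88.0 CPM in progenitors and no count in committed nuclei of either library, so it was at least 4.94-fold and at least 12.2-fold higher. Wnt2 and Bmp7, ligands of the WNT and BMP pathways, were at least 3.24-fold and at least 2.47-fold higher in the library labelled WT. Pcolce2, an enhancer of procollagen processing, was 5.10-fold (3.00–9.31) and 5.55-fold (3.94–8.06) higher, and Heg1, a membrane glycoprotein, 3.46-fold (2.51–4.87) and 3.45-fold (2.94–4.06). The 1 exception was Il13ra1, an interleukin receptor chain, whose interval held 1 in the library labelled WT (3.01-fold, 0.682–27.5). Uchl1, Stmn4 and Akr1c18 had too few counts to be compared.

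The list of 18 committed preadipocyte genes, 10 of which chose the comparison class and are no finding, ran the other way. Of the 8 members that chose nothing and had enough counts, 7 in each library had an interval below 1, with Penk the exception in both. Among them, Pparg, the master transcription factor of adipogenesis, had 31.1 CPM in progenitors and 158 in committed nuclei labelled WT (0.20-fold, 0.097–0.377), and 144 and 608 CPM labelled KO (0.24-fold, 0.20–0.28). Lpl, lipoprotein lipase, had 841 and 3094 CPM (0.27-fold, 0.24–0.31) and 620 and 948 CPM (0.65-fold, 0.58–0.73). Vcam1, an adhesion molecule, had 107 and 278 CPM (0.38-fold) and 82.1 and 224 CPM (0.37-fold). Penk, proenkephalin, stood apart from its list in the library labelled KO, with 64.8 CPM in progenitors and 14.5 in committed nuclei (4.47-fold, 2.00–12.4), and it was 0.97-fold (0.47–2.11) in the library labelled WT.

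**Figure D3:**
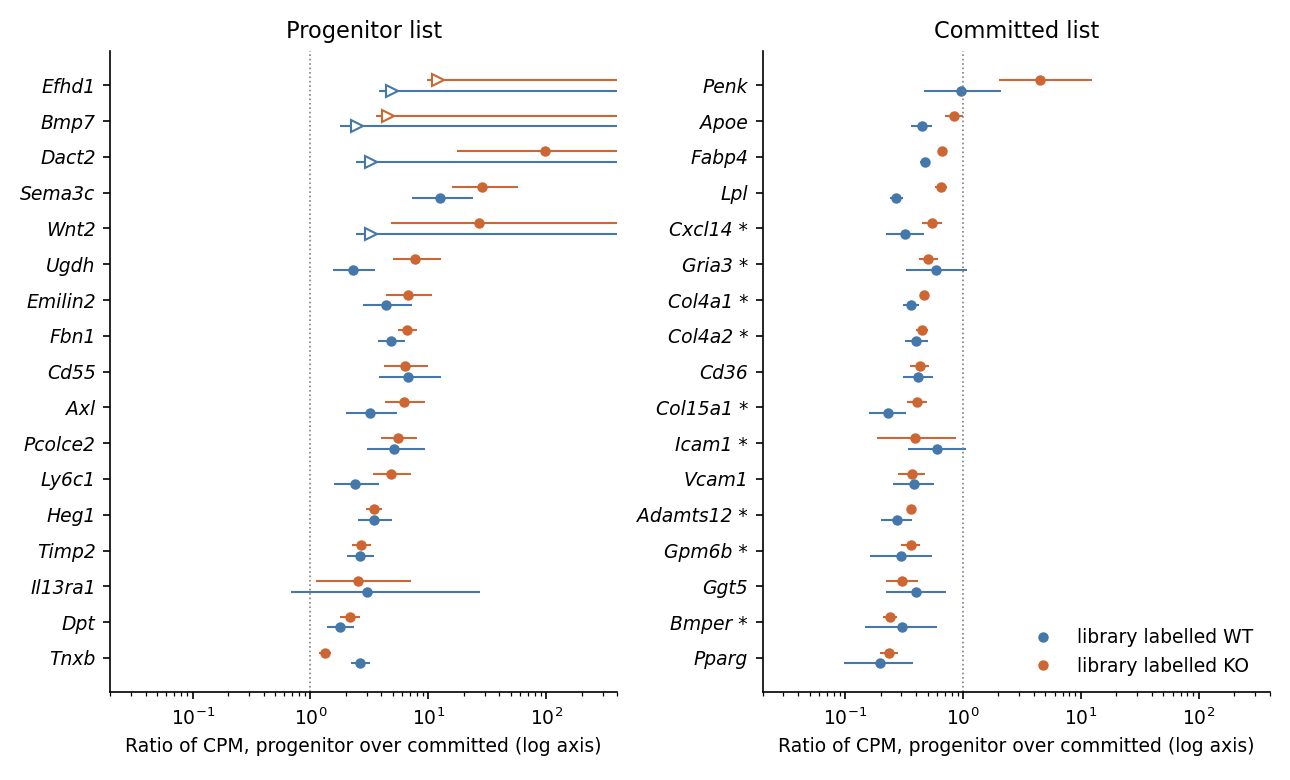
Ratio of CPM of progenitor over committed nuclei (horizontal log axis, exact 95% intervals for counting error, cut at the axis end) for the progenitor genes that the rule did not use (left) and the committed preadipocyte genes (right), in the library labelled WT (blue) and labelled KO (orange). Open triangles are lower bounds where the committed class had no count, and an asterisk marks genes that chose the committed class. The progenitor genes lie to the right of 1 and the committed genes to the left, except Penk in the library labelled KO.

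Across all genes outside the rules, the leading genes above the committed class were Sfrp4 (35.9-fold, 9.77–299, labelled WT; 22.9-fold, 9.76–70.8, labelled KO), Sema3c, Aldh1a3, Pcsk6, Sbsn, Fn1, Tmem100, Gas7, Col12a1 and Ptgis. Fn1, fibronectin, had 2559 CPM in progenitors and 407 in committed nuclei labelled WT (6.28-fold, 5.04–7.93), and 2150 and 220 CPM labelled KO (9.79-fold, 7.96–12.2). Aldh1a3, a retinaldehyde dehydrogenase that makes retinoic acid, had 122 and 119 CPM in progenitors. This was at least 8.49-fold (exact lower limit 6.68) and 24.7-fold (6.76–205) above the committed class. Ptgis, prostacyclin synthase, had 99.9 and 112 CPM, at least 6.95-fold (exact lower limit 5.42) and 11.6-fold (4.46–42.9) above it. Col12a1, a fibril-associated collagen, had 222 and 116 CPM in progenitors (15.4-fold and 12.0-fold).

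The leading genes below the committed class included several known from mural cells, the pericytes and smooth muscle of vessels. Notch3, the receptor of mural cells, had 6.66 CPM in progenitors and 125 in committed nuclei labelled WT (0.05-fold, 0.01–0.17) and 40.0 and 347 CPM labelled KO (0.12-fold, 0.09–0.15). Rgs5, a pericyte marker, had 2.22 and 47.9 CPM, and 2.47 and 109 CPM. Mylk, myosin light chain kinase, and the smooth muscle noncoding RNA Carmn were also among them, with Gm14964, Pde11a, Spry4, Pear1, Col27a1 and Tinagl1. The 10 mural markers summed to 107 and 144 CPM in progenitors and to 426 and 1040 CPM in committed nuclei. Committed nuclei without a UMI of these markers gave 408 genes higher in the progenitors, of which 237 were among the 339. They gave 98 lower genes, against 135. The 8 markers of lymphoid tissue stroma summed to 1150 CPM in committed nuclei labelled WT and 101 CPM in those labelled KO. In progenitors they summed to 448 and 89.98 CPM, and in lymphocyte nuclei to 872 and 194 CPM. The part of lymphoid stroma in the comparison with committed nuclei was not tested.

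Elastic fibre genes, the matrix these cells are known for, stood above the committed class. Of 17 in the list, 15 were compared, and 11 in each library had an interval above 1 and none below 1, with a median log2 ratio of 1.42 labelled WT and 0.87 labelled KO. Eln, elastin itself, had 1500 CPM in progenitors and 254 in committed nuclei labelled WT (5.91-fold, 4.46–7.97), and 295 and 142 CPM labelled KO (2.07-fold, 1.59–2.76). Fbn1 was 4.83-fold (3.77–6.27) and 6.61-fold (5.51–7.99) higher, and Emilin2, an elastin microfibril interface protein, 4.37-fold and 6.67-fold. Loxl1, an enzyme that cross-links elastin, was 2.85-fold (1.79–4.75) and 2.44-fold (1.88–3.23) higher.

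Not every member was higher in both libraries. Lox, another cross-linking enzyme, was 1.53-fold (1.07–2.24) higher labelled WT and 0.87-fold (0.56–1.40) labelled KO, and Fbln2, fibulin-2, 2.68-fold (2.05–3.57) and 1.05-fold (0.90–1.25). Fbn2 and Ltbp2 had too few counts to be compared. Of the 16 collagens compared, Col15a1, Col4a1 and Col4a2 chose the committed class. Of the other 13, 2 were higher and 7 lower in the progenitors labelled WT, and 7 were higher and 4 lower in those labelled KO. Col1a1 had 3307 and 3947 CPM in progenitor and committed nuclei labelled WT (0.84-fold, 0.77–0.91) and 4869 and 2236 CPM labelled KO (2.18-fold, 2.04–2.33), and Col3a1 likewise was 0.73-fold and 1.57-fold. Col12a1 and Col14a1 were higher in both libraries.

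Of 32 WNT pathway genes, 22 were compared, with 8 higher and 3 lower in the progenitors labelled WT and 10 higher and 4 lower in those labelled KO. Leaving out members with no count in committed nuclei, which met the minimum through the progenitors alone, left 5 higher of 19 labelled WT and 9 of 21 labelled KO. The higher ones in both libraries were the ligands Wnt2 and Wnt10b, the secreted antagonists Sfrp2 and Sfrp4, and Dact1 and Dact2. Wnt10b had 57.7 and 33.1 CPM in progenitors and no count in committed nuclei, at least 4.02-fold and at least 4.58-fold. Sfrp2, a secreted antagonist, had 306 and 95.8 CPM labelled WT (3.20-fold, 1.99–5.40) and 538 and 19.3 CPM labelled KO (27.9-fold, 14.1–64.8). Dact1 was 10.9-fold (2.85–92.5) and 2.29-fold (1.27–4.54) higher. Tcf7l2, a nuclear effector of the pathway, was lower, with 233 and 513 CPM labelled WT (0.45-fold, 0.34–0.60) and 398 and 601 CPM labelled KO (0.66-fold, 0.57–0.77).

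Of 26 TGF-beta and BMP genes, 14 that chose no class were compared, with 4 higher and 2 lower labelled WT and 7 higher and 1 lower labelled KO. Without Bmp7, which had no count in committed nuclei labelled WT or KO, 3 of 13 and 6 of 13 were higher. Tgfbr2 and Tgfbr3, the type II and the accessory TGF-beta receptors, were 2.29-fold (1.39–3.98) and 2.90-fold (1.87–4.66) higher in the progenitors labelled WT and 1.82-fold (1.46–2.29) and 1.76-fold (1.57–1.97) labelled KO. Chrdl1, a secreted BMP antagonist, was 3.24-fold (1.13–12.7) and 9.92-fold (4.19–30.8) higher. Acvr2a, an activin receptor, was lower, 0.31-fold (0.17–0.58) and 0.57-fold (0.45–0.71).

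Among 18 adipogenic factors, 11 were compared, with 4 higher and 2 lower labelled WT and 5 higher and 3 lower labelled KO. Klf4, a Krüppel-like factor, had 373 and 110 CPM (3.38-fold, 2.18–5.49) and 226 and 55.5 CPM (4.07-fold, 2.68–6.49). Cebpd, an early factor of adipocyte differentiation, was 1.67-fold (1.16–2.46) and 1.44-fold (1.13–1.85) higher. Nfia, like Pparg, was lower, 0.64-fold (0.44–0.94) and 0.76-fold (0.70–0.83).

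Of 16 hyaluronan and proteoglycan genes, 15 were in the files and 12 were compared, with 6 higher and 1 lower labelled WT and 6 higher and 2 lower labelled KO. Ugdh, which makes the UDP-glucuronate used for hyaluronan, was 2.30-fold (1.55–3.53) and 7.74-fold (4.97–12.7) higher, Ugp2, which acts before it, 6.02-fold (2.81–15.4) and 2.53-fold (1.83–3.59), and Vcan, versican, 2.64-fold (1.69–4.31) and 2.47-fold (1.91–3.25). Of 19 surface antigens, 15 outside the rules were compared, with 8 higher and 4 lower labelled WT and 6 higher and 5 lower labelled KO. Among them, Cd34 and Ly6a (SCA1) were higher, Ly6a 1.84-fold (1.47–2.31) and 3.76-fold (3.02–4.73). Pdgfra was lower, 0.60-fold (0.49–0.73) and 0.68-fold (0.60–0.77), and so was Pdgfrb. Of 21 axon guidance genes, 15 were compared, with 5 higher and 2 lower labelled WT and 7 higher and 5 lower labelled KO, or 3 of 13 and 5 of 13 higher without members that had no count in committed nuclei. Among the latter was Sema3d, which had no count there and was at least 5.41-fold and at least 11.3-fold higher.

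Of 15 stromal cytokine and complement genes that chose no class, 3 were higher and 7 lower labelled WT, and 6 were higher and 3 lower labelled KO. C3, the complement component, was higher in both, 1.92-fold (1.55–2.40) and 2.61-fold (2.23–3.08). Fgf10, a growth factor of preadipocytes, was lower in both, 0.10-fold (0.01–0.50) and 0.25-fold (0.22–0.30). Ccl2, a monocyte chemokine, was 0.44-fold (0.22–0.88) labelled WT and 3.69-fold (1.52–11.6) labelled KO.

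The progenitors were then divided by how many selecting genes each nucleus had, and the genes outside the rule are described over these strata. Depth differed little between these strata within a library, with medians of 1524, 1536 and 1794.5 UMIs for 3, for 4 or 5 and for 6 to 9 selecting genes labelled WT (43, 92 and 56 nuclei), and of 3939, 3180 and 3465 UMIs labelled KO (63, 103 and 296 nuclei). The selecting genes set both the membership and the strata, so genes that go with them in these nuclei differ between strata by the choice itself. The values are therefore a description and support nothing.

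The 20 progenitor genes outside the rule summed to 4368, 8580 and 12276 CPM over the strata labelled WT and to 3644, 6716 and 11776 CPM labelled KO, against 2500 and 2552 CPM in committed nuclei. In the 28 regulatory nuclei labelled KO they summed to 3738 CPM (3379–4124), beside 3644 CPM (3429–3869) in the stratum of 3 selecting genes. The library labelled WT held only 1 regulatory nucleus. Sema3c went from 374 to 760 to 1167 CPM labelled WT (3.12-fold, 2.18–4.57) and from 98.7 to 286 to 1082 CPM labelled KO (11.0-fold, 7.60–16.4). Cd55 was 4.06-fold (2.39–7.31) and 4.27-fold (3.04–6.19), and Dact2 14.5-fold (6.96–36.2) labelled KO, where it went from 23.8 to 344 CPM.

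The committed preadipocyte list, with the 10 genes that chose the committed class, summed to 7520, 5205 and 3363 CPM labelled WT and to 11817, 7721 and 4911 CPM labelled KO, against 13801 and 13234 CPM in committed nuclei. The list is not particular to committed nuclei, since it summed to 16004 and 12146 CPM in adipocyte nuclei and to 4464 and 5921 CPM in lymphocyte nuclei, the latter above the 6 to 9 stratum. In the 6 to 9 stratum, 10 of 15 genes labelled WT and 15 of 17 labelled KO had an interval below 1 relative to 3 selecting genes and none lay above 1, against 4.71% and 9.94% of all genes below 1. Pparg went from 446 to 156 to 69.8 CPM labelled KO (0.16-fold, 0.12–0.21), and in the library labelled WT its counts were 6 in the lowest and 3 in the highest stratum. Bmper, a BMP modulator, went from 633 to 368 to 82.4 CPM labelled KO (0.13-fold, 0.10–0.17).

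At least 3 of the 10 genes that chose the committed class were also seen in 32.6% (19.1–48.5), 16.3% (9.42–25.5) and 5.36% (1.12–14.9) of the 3 strata labelled WT, and in 84.1% (72.7–92.1), 51.5% (41.4–61.4) and 35.1% (29.7–40.9) labelled KO. Depth differs between the libraries, and these shares are read only down the strata of each.

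The regulatory list summed to 1370, 1453 and 1526 CPM labelled WT and to 2637, 3384 and 919 CPM labelled KO. Mgp, matrix Gla protein, was left out after its values were seen. Without it the sums labelled WT were 1264 (1058–1499), 1136 (1000–1284) and 1004 (834–1198) CPM, with overlapping intervals. Labelled KO they were 2276 (2107–2455), 3089 (2930–3255) and 846 (796–898) CPM. Only labelled KO did the interval at 6 to 9 selecting genes lie below the others. In the 6 to 9 stratum labelled KO, 9 of 10 genes were lower than in the stratum of 3, beside 9.94% of all genes, among them Fmo2, a flavin monooxygenase (548 to 121 CPM, 0.22-fold, 0.18–0.28), and Gdf10, a BMP-family ligand (269 to 129 CPM, 0.48-fold, 0.37–0.64), which was highest at 4 or 5 selecting genes with 685 CPM. Labelled WT, 2 of 7 were lower, beside 4.71% of all genes, and 1, Mgp, was higher (4.96-fold, 2.59–10.4), beside 9.99%. All 64 Mgp counts of the top stratum labelled WT came from 2 of its 56 nuclei. Mgp was 0.20-fold (0.15–0.27) labelled KO.

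**Figure D4:**
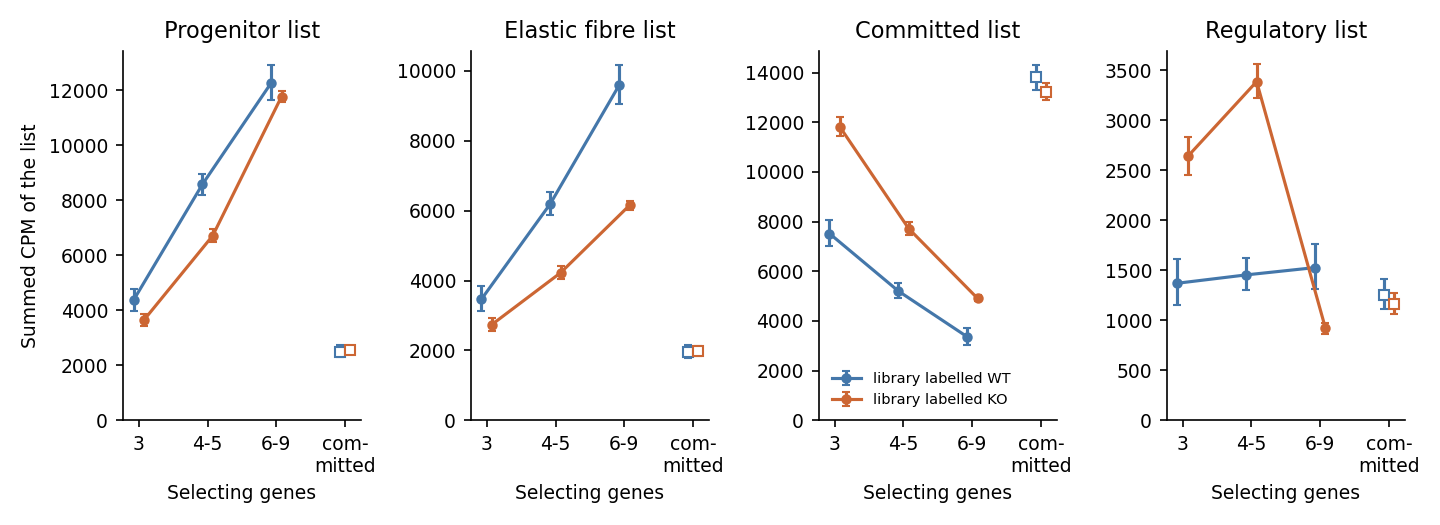
Summed CPM of 4 gene lists (vertical axes, Poisson 95% intervals) in progenitor nuclei with 3, 4 or 5, and 6 to 9 selecting genes (filled circles, joined by lines) and in committed nuclei (open squares), for the library labelled WT (blue) and labelled KO (orange). The progenitor and elastic fibre lists are highest at 6 to 9 selecting genes and the committed list at 3, and the regulatory list, with Mgp included, falls to its lowest value at 6 to 9 genes in the library labelled KO.

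The elastic fibre list summed to 3468, 6197 and 9590 CPM over the strata labelled WT and to 2739, 4224 and 6152 CPM labelled KO, with 9 of 14 and 6 of 15 genes higher in the top stratum and 0 and 3 lower, beside 9.99% and 10.2% of all genes higher there. In the 28 regulatory nuclei labelled KO the elastic fibre list summed to 2636 CPM (2337–2964), beside 2739 CPM in the stratum of 3 selecting genes. Between the top stratum and that of 3 selecting genes, Fbn1 was 3.57-fold (2.74–4.70) labelled WT and 4.04-fold (3.48–4.72) labelled KO. Eln was 2.70-fold (2.12–3.49) labelled WT, from 824 to 2228 CPM, and 1.12-fold (0.865–1.47) labelled KO, from 242 to 271 CPM. The lymphocyte markers were lowest in the top stratum of both libraries, at 718 against 1389 CPM labelled WT and 40.8 against 180 CPM labelled KO.

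Cell cycle genes were summed as well. The 12 genes summed to 222 CPM in the progenitors labelled WT and 73.7 CPM labelled KO, and to 172, 340 and 49.0 CPM over the strata labelled WT and 54.4, 176 and 41.6 CPM labelled KO. The sums labelled WT and KO were 110 and 45.8 CPM in committed nuclei, 113 and 16.5 in adipocyte nuclei and 317 and 140 in lymphocyte nuclei. Mki67, a marker of cycling cells, had 21 counts in the progenitors labelled WT and 12 in those labelled KO.

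The last comparison set the progenitors of the 2 libraries against each other. Of 7447 genes with at least 50 counts over the progenitors of both, 1918 (25.8%) had at least 2 times the CPM in the library labelled KO and 668 (8.97%) at most 0.5 times. The median log2 ratio of all these genes was 0.18, and it was 0.30 with trimmed-mean (TMM) scaling and -0.07 without mt- genes and Malat1. The share of past-fold genes that were higher labelled KO was 74.2%, against 81.4% with TMM scaling, 58.1% without mt- genes and Malat1 and 59.7% after a correction for gene span. The ratio moved with the genomic span of the gene, from a median log2 of -0.53 for genes up to 10000 bases to 2.54 for genes over 300000 bases (RefSeq spans, GRCm38.p6). For some of the genes below, the ratio in the committed class is given beside that in the progenitors.

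Ebf2, a transcription factor of adipose precursors with a span of 197661 bases, had 131 CPM in the progenitors labelled WT and 1901 in those labelled KO (14.5-fold, 11.2–19.1), and its ratio in committed nuclei was 13.2 (7.92–23.9). Zfp521, a zinc finger inhibitor of early adipogenesis, was 23.1-fold (13.5–43.6) in progenitors and 27.9-fold in committed nuclei, and Rora, a nuclear receptor, 12.9-fold (9.94–17.0) and 32.7-fold. Tgfbr3 was 4.31-fold (3.65–5.11) and 7.09-fold (4.69–11.2). These are long genes, Zfp521 with a span of 285737 bases, Rora with 734843 and Tgfbr3 with 183063. After the span correction the log2 ratios in the progenitors went from 3.86 to 2.29 for Ebf2, from 4.53 to 2.09 for Zfp521, from 3.69 to 1.25 for Rora and from 2.11 to 0.54 for Tgfbr3. Dact2, with a span of only 9098 bases, had 46.6 CPM labelled WT and 235 labelled KO in the progenitors (5.05-fold, 3.27–8.23), and within the strata it was 1.24-fold (0.24–12.3) at 3, 1.85-fold (0.83–4.67) at 4 or 5 and 3.84-fold (2.12–7.74) at 6 to 9 selecting genes.

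Of 17 progenitor genes outside the rule, 6 had an interval above 1 and 2 below 1 between the libraries, beside 31.9% and 19% of all genes. Their median log2 ratio was 0.26 and changed sign with the processing, from -0.11 after the span correction to 0.38 with TMM scaling, and 1 of the 17, Dact2, was past 2-fold and none at or below 0.5-fold. Summed over the 20 listed genes the level was 8609 CPM labelled WT and 9459 labelled KO, while the sums given above for each stratum were lower labelled KO. Sema3c was 0.97-fold (0.87–1.10), Timp2 0.98-fold (0.88–1.10), Cd55 0.87-fold (0.74–1.03) and Fbn1 1.20-fold (1.11–1.30). Within the strata Sema3c was 0.26-fold (0.16–0.44) at 3, 0.38-fold (0.30–0.48) at 4 or 5 and 0.93-fold (0.78–1.11) at 6 to 9 selecting genes. In the same order Timp2 was 0.79-fold (0.56–1.12), 1.22-fold (1.02–1.45) and 0.71-fold (0.60–0.85). Cd55 was 0.73-fold (0.40–1.39), 0.31-fold (0.22–0.43) and 0.77-fold (0.61–0.98), and Fbn1 0.92-fold (0.69–1.23), 0.71-fold (0.62–0.82) and 1.04-fold (0.92–1.18).

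Of 15 elastic fibre genes, 6 had an interval below 1 and 4 above 1 between the libraries, beside 19% and 31.9% of all genes. The list's median log2 ratio was -0.31 and was negative in each of the 12 alternatives, from -0.74 after the span correction to -0.20 with TMM scaling, and 3 of 15 genes, Eln, Lox and Mfap4, were at or below 0.5-fold. Eln was 0.20-fold (0.18–0.22) in progenitors and 0.56-fold (0.38–0.83) in committed nuclei, and its 2 intervals did not overlap. Lox had 293 and 52.4 CPM in progenitors (0.18-fold, 0.14–0.23) and was 0.31-fold (0.18–0.53) in committed nuclei, where the intervals overlapped. Mfap4 was 0.14-fold (0.10–0.18) in progenitors, with few counts in committed nuclei (0.20-fold, 0.02–1.23).

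Eln was also low labelled KO within each stratum, 0.29-fold (0.21–0.41) at 3, 0.28-fold (0.23–0.34) at 4 or 5 and 0.12-fold (0.10–0.14) at 6 to 9 selecting genes. In adipocyte nuclei the ratio of Eln was 0.24 (0.16–0.37) and in endothelial nuclei 0.54 (0.39–0.73), so that Eln was lower labelled KO outside the progenitors too. Fbln2 was 0.55-fold (0.49–0.625) in progenitors and 1.41-fold (1.05–1.91) in committed nuclei, and Fbln1, fibulin-1, 0.76-fold (0.62–0.93) and 4.36-fold (1.34–22.5). Ltbp1, a latent TGF-beta binding protein with a span of 387033 bases, was the reverse, 6.14-fold (4.39–8.87) and 3.63-fold (2.10–6.70). Among the strata, Fbln1 was low labelled KO only at 6 to 9 selecting genes, 0.41-fold (0.31–0.56). It was 1.12-fold (0.60–2.21) at 3 and 1.20-fold (0.87–1.69) at 4 or 5.

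**Figure D5:**
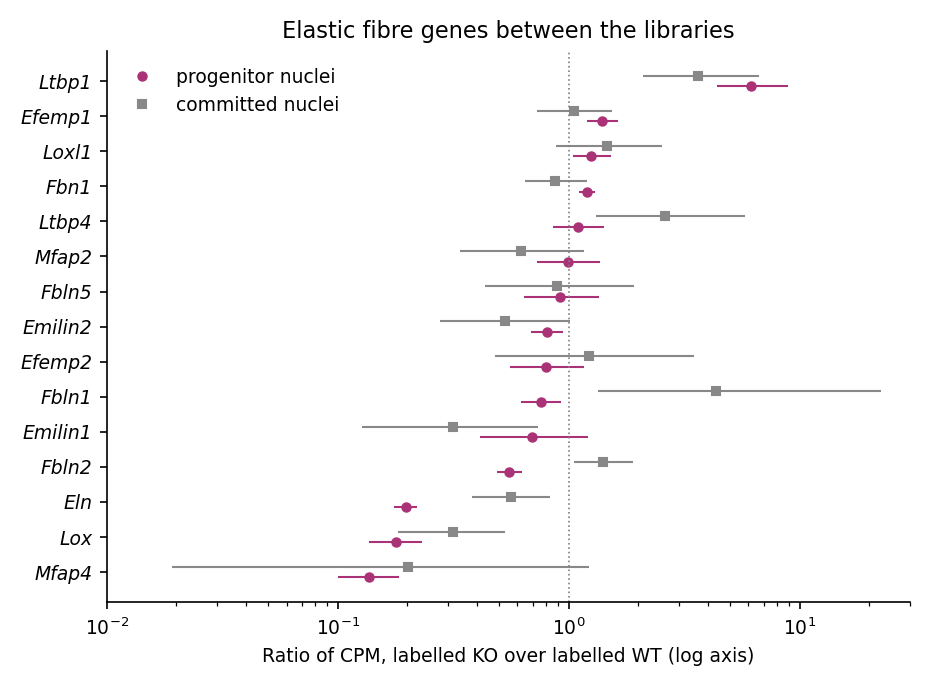
Ratio of CPM, library labelled KO over labelled WT (horizontal log axis, exact 95% intervals for counting error), for 15 elastic fibre genes in progenitor nuclei (circles) and committed nuclei (squares). Eln, Lox and Mfap4 lie lowest in the progenitors, between 0.14 and 0.20, and Ltbp1 highest at 6.14.

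Col1a1 was 1.47-fold (1.39–1.56) in the progenitors and 0.57-fold (0.52–0.62) in committed nuclei, and Col3a1 1.39-fold (1.35–1.44) and 0.65-fold (0.61–0.68), so the ratios of both collagens lay on opposite sides of 1 in the 2 stromal classes. The collagens' median log2 ratio in progenitors was 0.37 and -0.36 after the span correction. Igf1, insulin-like growth factor 1, was 0.70-fold (0.55–0.88) in progenitors, and Klf4 0.61-fold (0.51–0.73). Klf4 also had fewer CPM labelled KO than labelled WT in committed nuclei. Icam1 was 0.17-fold (0.09–0.29) in progenitors and 0.25-fold in committed nuclei.

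The ratio between libraries had an interval apart from those of the adipocyte, myeloid, endothelial and committed classes for 7 of 7442 genes, 6 above and 1 below. Pcdh7, a protocadherin, had 175 and 848 CPM (4.84-fold, 3.86–6.14) against 2.67-fold (1.94–3.75) in committed nuclei. Nfib, a nuclear factor I protein, was 2.43-fold (2.06–2.88) against 1.68-fold (1.39–2.05), and Zeb2, a zinc finger repressor, 2.08-fold (1.82–2.39) against 1.27-fold (1.08–1.50). Cd63, a tetraspanin, was 1.58-fold (1.32–1.89) against 0.97-fold, and Sparc, a collagen-binding matrix protein, 1.37-fold (1.29–1.46) against 0.70-fold (0.63–0.78). Lymphocyte nuclei were not among the 4 classes, and Sparc had an overlapping ratio there of 1.48 (1.16–1.86). Ly6a was 0.87-fold (0.78–0.98) in progenitors and 0.43-fold (0.32–0.58) in committed nuclei. The 1 gene below was Serinc3, a membrane protein, at 0.62-fold (0.48–0.81). After the correction for gene span the log2 ratios of the first 3 went from 2.27 to -0.17 for Pcdh7, from 1.28 to -0.28 for Nfib and from 1.06 to 0.01 for Zeb2. Those of the other 4 went from 0.66 to 0.93 for Cd63, from 0.46 to 0.54 for Sparc, from -0.19 to 0.42 for Ly6a and from -0.69 to -0.54 for Serinc3.

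The IgLON genes include Opcml, which is a selecting gene and no finding. Iglon5 had 6.66 and 7.91 CPM. Negr1 had 48.8 CPM in the progenitors labelled WT and 310 in those labelled KO (6.36-fold, 4.16–10.2). Over the 3 IgLON genes compared between the libraries, Opcml among them, the median log2 ratio went from 3.74 to 0.76 after the span correction. Lsamp had no count labelled WT and 57.3 CPM labelled KO, where it was lower than in committed nuclei (0.19-fold, 0.15–0.25). Bmp6, a BMP ligand, likewise had no count in the progenitors labelled WT and 116 CPM in those labelled KO, where it was 24.0-fold (6.56–199) above the committed class.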

How the data were processed

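Single-nucleus libraries (10x Genomics 3' v3.1) were deposited as whole-number UMI counts. The authors obtained these with Cell Ranger (cellranger 6.1.1, build mm10, in the submitters' processing notes). Whether intronic reads were counted, and any removal of free RNA, are not given in the sources used here. Counts were used as deposited.

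Counts were summed per class and library and divided by the class's total (CPM). Shares have Clopper-Pearson, sums Poisson and ratios exact conditional binomial 95% intervals. Intervals of differences between shares are approximate, combining the limits of both shares by their root sum of squares. PCR copies are removed by UMIs, and intervals cover counting error only. Where a class had no count, the bound used 3 counts over the class and left out the counting error of the progenitors. Genes needed at least 10 counts per library against committed nuclei and 50 between libraries. No doublet caller was run. The excluding genes and an alternative without the 10% of progenitors with the most UMIs stood in for one. Classes other than the progenitors came from marker rules, and barcodes meeting several were left out as mixed.

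The members and the gene lists were chosen with earlier results of these data known. Genes named in the text are the rule's 17 genes, the 15 highest over all other nuclei, the 10 highest and 10 lowest over committed nuclei, those whose ratio between libraries was apart from 4 classes, and list genes, ranked by interval bounds. Scripts were tested on simulated data. Python 3.11.15, numpy 2.4.6, scipy 1.17.1, pandas 2.3.3, matplotlib 3.10.9, R 4.3.3 and edgeR 4.0.16 (for TMM factors only) were used. Alternatives covered the rule, depth, filters, scaling and gene span (RefSeq, GRCm38.p6, 96.8% of genes).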

Additional observations from a re-analysis of the deposited data

How the results depend on the processing

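No paired analysis was possible because each genotype had 1 library, and for the same reason no replicate could be left out and no result has a test. Of 214 alternative values, 44 moved, by over 1.5 times for counts or past the reported value's own interval for shares and list medians. That interval is wide for a median over few genes, so medians could shift far within it. Of 120 list medians between the libraries under these alternatives, 8 changed sign, 4 of them of the progenitor genes, 1 each of collagens, committed and WNT genes, and 1 of all genes. The share labelled WT and labelled KO was 4.06% and 13.6% with at least 4 selecting genes, 1.53% and 10.1% with at least 6, 4.52% and 12.7% with Pi16 or Dpp4 required, 3.54% and 6.66% with no UMI of an excluding gene, and 2.52% and 11.7% after thinning to 500 UMIs. It was 9.02% labelled WT without lymphocyte barcodes, 69.0% and 76.1% of stromal barcodes, 7.26% labelled WT with at least 1000 genes per barcode, 3.62% labelled WT without progenitors that had a lymphocyte gene, 14.1% labelled KO without the 10% of progenitors with the most UMIs and 21.9% labelled KO without the adipocyte exclusion. It was 4.36% and 8.56% without progenitors that also met the committed rule, and 57.4% and 41.5% of stromal barcodes with these counted as committed. The share labelled KO was the higher in each of these pairs except the last, in which the order turned. Genes past 2-fold over the committed class (339 higher, 135 lower, of 8204) were 225 and 71 of 3338 after thinning, 124 of the 225 being among the 339, and 160 and 40 of 3781 with at least 30 counts. Between libraries (1918 higher labelled KO, 668 lower, of 7447), the numbers were 1244 and 361 of 4238 with no UMI of an excluding gene, 1033 higher of 7132 after the span correction, and 425 lower of 5188 with at least 6 selecting genes, 1129 of 7447 without mt- genes and Malat1 and 1315 of 10662 with at least 20 counts. With the span correction the median log2 ratio went from 0.37 to -0.36 for collagens, from 0.37 to -0.23 for committed genes, from 1.74 to 0.48 for adipogenic factors, from 1.50 to 0.10 for axon guidance and from 1.19 to 0.47 for TGF-beta and BMP genes, and from 0.26 to 0.38 for progenitor genes with TMM scaling. The committed-class comparison of the progenitor genes stayed at 14 to 17 genes higher of those compared in every alternative. The alternatives with at least 6 selecting genes, without lymphocyte genes, without the adipocyte exclusion, without mural genes and with the nuclei of both rules recounted were chosen after seeing the data. The cause of these movements was not tested.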
